A study of Bos taurus with 12 samples.

Results

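PROCR and THBD encode natural brakes on clotting that endothelial cells carry, and TFPI2 encodes a protease inhibitor that they secrete. Their probe sets were taken as those to which the array's annotation gives 1 of these symbols, and each gene had 1 probe set, so they are 3 of the 3977 genes named by a probe set with 1 symbol. All 3 symbols matched the cattle RefSeq table. The rule used the annotation only, but the genes were picked with earlier results of these data known.

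PROCR, the endothelial protein C receptor, holds protein C at the cell surface. THBD, thrombomodulin, binds thrombin there, and the bound thrombin activates the protein C held by PROCR. Activated protein C then cuts clotting cofactors, which slows the making of more thrombin. TFPI2, tissue factor pathway inhibitor 2, is a secreted inhibitor with Kunitz domains that lodges in the matrix and blocks plasmin and other serine proteases. In cultured human endothelium THBD is known as a gene raised by steady laminar flow. Every sample here was under flow, so a change from no flow to flow cannot be read from them.

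The cells were cultured bovine aortic endothelial cells at passage 15, grown to confluence on glass coverslips and then kept in a flow loop for 24 h. The 4 groups were a positive gradient of wall shear stress (the drag of the fluid on the cells), a negative gradient, a uniform high stress of 28.4 Pa and a uniform baseline of 3.5 Pa. In every group the growth medium, with 10% serum, was replaced 24 h before flow by the flow medium, DMEM with 5% serum, 1% antibiotics and 8% Dextran 70. Each group had 3 arrays, numbered 1 to 3. The sources used here give neither the local stress in the gradient chambers nor whether the replicates were separate cultures, so p-values measure only the spread between these samples, which may be technical.

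Levels are log2 values as the authors computed them with RMA (robust multi-array average), so a difference of 1 is a 2-fold change. Over the 24016 probe sets tested, array medians lay between 5.65 and 5.72. By their mean, the 10 measured endothelial markers lay between percentile 14.8 (FLT1) and 96.3 (PECAM1) of the named genes, with TEK at 93.4, CDH5 at 90.9 and PLVAP at 24.8. The 3 fibroblast markers lay at 96.0 (COL1A2), 57.5 (COL3A1) and 11.6 (THY1), the smooth muscle markers at 58.4 (TAGLN) and 4.17 (SMTN), and the leukocyte marker CD14 at 2.06. Only 1 leukocyte and 2 smooth muscle markers were measured, and 0 of the 5 platelet markers looked for. High stress replicate 3 stood apart from its group: by root mean square difference it lay 0.197 from positive gradient replicate 3, less than any of the other array pairs, and 0.441 and 0.442 from the 2 arrays of its own group. Negative gradient replicate 1 also lay closer to positive gradient replicate 1 (0.237) than to the arrays of its own group (0.356 and 0.430). Negative gradient replicate 2 lay 0.286 from positive gradient replicate 2, and 0.342 and 0.430 from its own group. The arrays of the gradients and of the uniform flows carry separate runs of record numbers, so flow type and record run cannot be told apart between them.

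By their mean over the 12 arrays the 3 genes lay in the upper part of the named genes, PROCR at percentile 85.2, THBD at 70.6 and TFPI2 at 67.1. Beyond such percentiles, no test compared the levels of different probe sets. The 3 genes differed in how far they varied. The SD of PROCR over the 12 arrays was 1.35 on the log2 scale, at percentile 99.4 of the named genes. That of TFPI2 was 0.54 (percentile 89.8) and that of THBD was 0.21 (percentile 25.3). A moderated F test in limma asked for any difference among the 4 groups. PROCR passed it (adjusted p = 0.0321), while THBD (0.426) and TFPI2 (0.647) did not. Over all probe sets 1.59% passed.

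**Figure D1:**
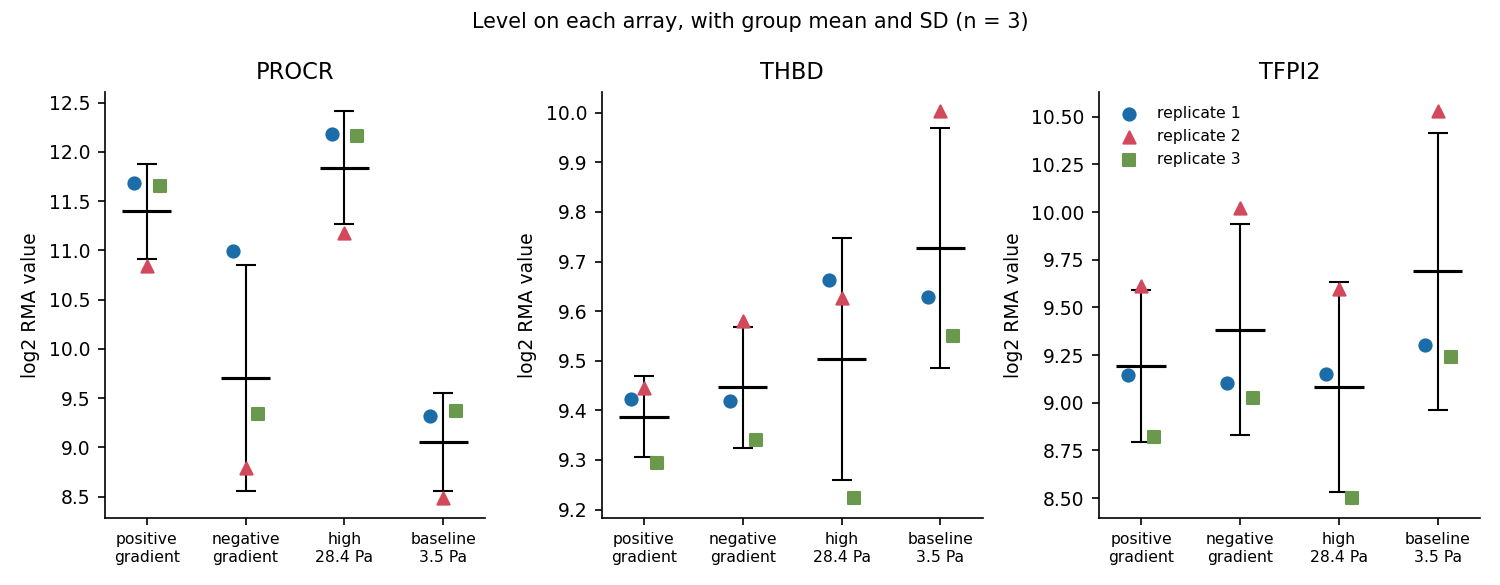
Log2 RMA value (vertical axis, a different range in each panel) of PROCR, THBD and TFPI2 on each array, by flow group. Points are arrays, marked by replicate number, and bars give the group mean and SD (n = 3). All PROCR values of the positive gradient and high stress arrays lie above 10.8, and all baseline values below 9.4, while the groups of TFPI2 overlap throughout.

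PROCR stood at 11.68, 10.84 and 11.66 under the positive gradient in replicates 1, 2 and 3. Under the negative gradient it stood at 10.99, 8.79 and 9.34. At high stress the values were 12.18, 11.18 and 12.16, and at baseline they were 9.31, 8.48 and 9.37. Every positive gradient and high stress array lay above every baseline array, and the negative gradient spanned the gap, with replicate 1 above the lowest positive gradient array and replicates 2 and 3 within the baseline range. A split with the positive gradient higher than baseline was seen for 18.6% of probe sets, and one with high stress higher for 9.09%.

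The same 3 baseline arrays served 3 of the comparisons, so these are not independent of each other. Set against baseline, the positive gradient asks how cells in a rising stress differ from cells at a low uniform one. PROCR rose there by 2.34 on the log2 scale (SE 0.478, limma adjusted p = 0.022), a 5.06-fold difference with a 95% interval of 2.47 to 10.3. It averaged 11.39 ± 0.48 under the positive gradient and 9.06 ± 0.50 at baseline (SD, n = 3 each). The arrays of the same replicate number differed by 2.37, 2.36 and 2.28, a narrow range beside the spread within either group. Among the 3977 named genes this was the largest positive difference, and among all probe sets it ranked 3. Of the 3 genes 1 was called, where 7.01% of all probe sets were called in either direction and 2.74% were called higher. Without positive gradient replicate 1, 2 or 3, or without baseline replicate 3, the PROCR difference stayed between 2.19 and 2.61 but its adjusted p was 0.0554 to 0.0806.

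High stress against baseline asks what a uniform rise in stress does. PROCR rose by 2.78 (SE 0.478, limma adjusted p = 0.029), which is 6.88-fold with a 95% interval of 3.36 to 14.1. It averaged 11.84 ± 0.57 at high stress, against 9.06 ± 0.50 at baseline. Pairs of the same number differed by 2.87, 2.70 and 2.79. This was the largest positive difference of all 24016 probe sets, of which 0.408% were called and 0.112% were called higher. Of the 3 genes 1 was called. Without high stress replicate 1 or 3, or without any 1 of the baseline arrays, the call was lost at adjusted p-values of 0.0711 to 0.127, with differences of 2.49 to 2.94. Without high stress replicate 3, the array that stood apart, the difference was 2.62 (adjusted p = 0.127).

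Between the gradients, the comparison of the study's title, PROCR averaged 11.39 ± 0.48 under the positive and 9.71 ± 1.15 under the negative gradient. The log2 difference of 1.69 (SE 0.478, 95% interval 0.66 to 2.72) was the largest positive one of the named genes but did not pass limma's test (adjusted p = 0.703). Of the 24016 probe sets 0 (0%) passed it, and 1247 had an unadjusted p under 0.05. In pairs of the same number PROCR differed by 0.69, 2.05 and 2.32. The small difference of the pair numbered 1 came with a PROCR value of 10.99 in negative gradient replicate 1, 1.28 above the mean of its group. With the replicate number as a block the adjusted p of PROCR was 0.0661, and 6 probe sets (0.0250%) were called. Leaving out replicate number 1 in every group was a choice made after the data were seen. That number had the smallest PROCR pair difference, so a larger one was bound to follow: 2.18 (adjusted p = 0.00846 with the block). Of the 13 other settings tried, this was the only 1 in which the PROCR difference passed. In the 3 settings chosen after the data were seen, 0 to 4 probe sets passed.

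The other comparisons with the negative gradient also moved with that array. Negative gradient against baseline gave 0.65 (95% interval −0.38 to 1.68, adjusted p = 0.429), with pairs at 1.68, 0.31 and −0.032, and without that array the difference was 0.0082. Of the 3 genes 0 were called here, and of all probe sets 1.67% (6.62% with the block). Negative gradient against high stress gave −2.13 (SE 0.478, adjusted p = 0.0861), the most negative of all 24016 probe sets, of which 0.0958% were called. Its 3 negative gradient arrays all lay below the 3 high stress arrays, a split in that direction that 8.15% of probe sets showed. Without negative gradient replicate 1 the difference was −2.77 and passed limma's test (adjusted p = 0.0404). Without high stress replicate 3 it was −1.97 (adjusted p = 0.0534). Positive gradient against high stress gave −0.44 (95% interval −1.48 to 0.59, adjusted p = 0.863), and −0.28 without high stress replicate 3. No probe set was called there (0%), with 1424 at an unadjusted p under 0.05. High stress had the highest mean PROCR level, followed by the positive gradient, the negative gradient and baseline, and no neighbours in this order differed by the adjusted test.

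**Figure D2:**
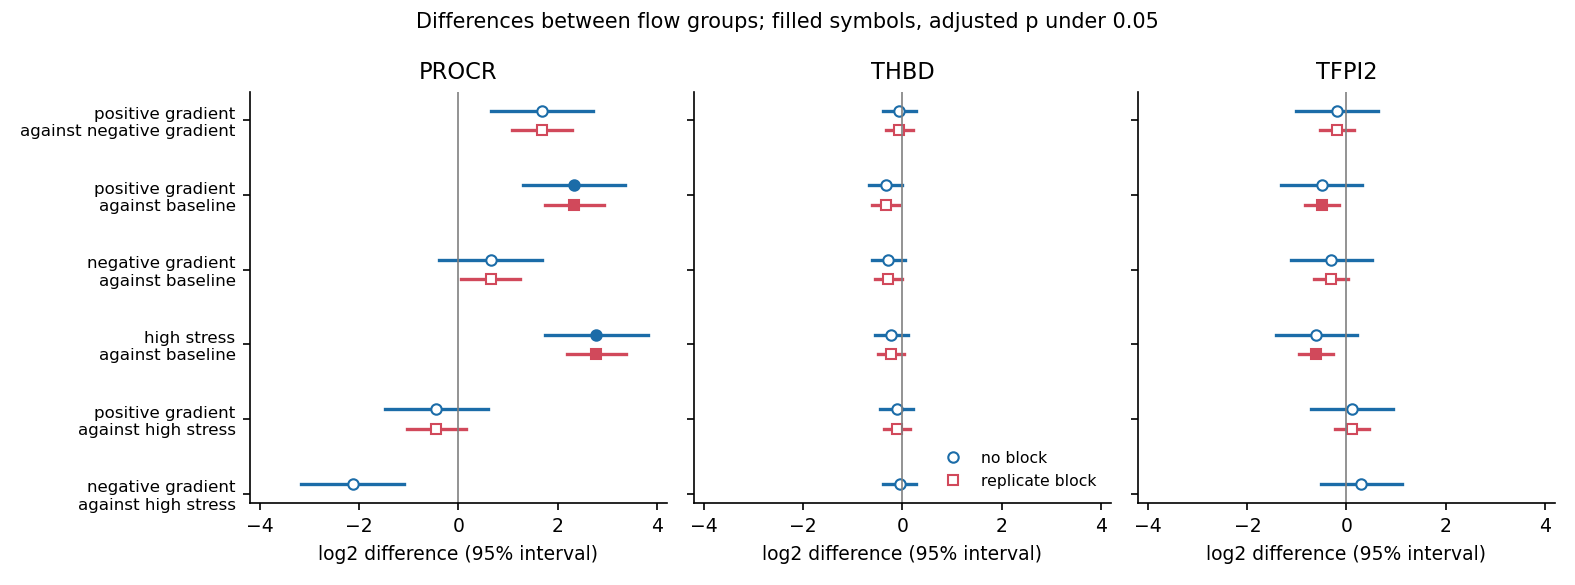
Log2 differences of PROCR, THBD and TFPI2 in the 6 comparisons, named down the side, with 95% intervals. Circles are the fit without a block and squares the fit with the replicate number as a block, drawn for the 5 comparisons in which the numbers paired the arrays. PROCR is at 2.34 and 2.78 for the positive gradient and high stress against baseline, while every THBD and TFPI2 difference lies between −0.61 and 0.30.

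Signs that could move with these results were read from the same arrays. The controls for EF1A, GAPDH and ACTB report how far labelled RNA extends through the difference of their 3′ and 5′ probe sets. For EF1A, an elongation factor, it was −2.08 to −1.54 under the positive gradient and −1.42 to −1.04 at baseline, without overlap. For GAPDH, a glycolytic enzyme, it was 0.040 to 0.34 under the positive gradient and 0.59 to 0.69 at baseline, also without overlap, while for ACTB, an actin, the ranges of 0.95 to 1.20 and 1.01 to 1.69 overlapped. The part of these controls in the PROCR difference was not tested. At high stress the EF1A difference was −1.09, −1.15 and −2.03 in replicates 1, 2 and 3, where PROCR stood at 12.18, 11.18 and 12.16. Under the negative gradient the EF1A difference was −2.16 to −1.81, where PROCR stood at 8.79 to 10.99. The summed log2 level of the 10 measured endothelial markers was 97.2 to 98.7 under the positive gradient, 94.8 to 97.8 at high stress and 94.0 to 95.4 at baseline. CD14 was 4.18 to 5.52 under the positive gradient and 5.15 to 7.99 at baseline. The sums of the 3 fibroblast markers (25.6 to 27.5 against 27.5 to 29.3) lay lower under the positive gradient and those of the 2 smooth muscle markers (14.0 to 15.8 against 13.8 to 14.8) overlapped. The part of these markers in the PROCR difference was not tested, and in bulk RNA fewer cells of a type and less RNA per cell cannot be told apart.

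THBD stood at 9.42, 9.44 and 9.29 under the positive gradient in replicates 1, 2 and 3. Under the negative gradient the values were 9.42, 9.58 and 9.34, at high stress 9.66, 9.63 and 9.22, and at baseline 9.63, 10.00 and 9.55. The positive gradient arrays all lay below the baseline arrays, as did 17.9% of probe sets, and every other pair of groups overlapped. The largest difference between groups was that of the positive gradient, at 9.39 ± 0.08, against baseline, at 9.73 ± 0.24 (SD, n = 3 each). It came to −0.34 (SE 0.156, 95% interval −0.68 to −0.0035) and did not pass over all probe sets (limma adjusted p = 0.176, and 0.0716 with the replicate block).

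The intervals of the other THBD differences all included 0. High stress against baseline gave −0.22 (95% interval −0.56 to 0.11, adjusted p = 0.546), or −0.083 without high stress replicate 3, with pairs at 0.033, −0.38 and −0.33. Negative gradient against baseline gave −0.28 (−0.62 to 0.056, adjusted p = 0.296). These intervals reach no higher than a THBD level 1.08 times that of baseline under high stress and 1.04 times under the negative gradient. Between the gradients THBD differed by −0.059 (−0.40 to 0.28). Positive and negative gradient against high stress gave −0.12 (−0.45 to 0.22) and −0.057 (−0.39 to 0.28), or −0.26 and −0.20 without high stress replicate 3. Baseline had the highest THBD mean, high stress (9.50 ± 0.24), the negative gradient (9.45 ± 0.12) and the positive gradient followed, and no neighbours in this order differed by the test.

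TFPI2 stood at 9.14, 9.61 and 8.82 under the positive gradient in replicates 1, 2 and 3. Under the negative gradient it stood at 9.10, 10.02 and 9.03. At high stress it stood at 9.15, 9.60 and 8.50, and at baseline at 9.30, 10.53 and 9.24. Every pair of groups overlapped, and in each group replicate 2 was the highest array. High stress, at 9.08 ± 0.55, lay below baseline, at 9.69 ± 0.73 (SD, n = 3 each). The difference was −0.61 (SE 0.379, limma adjusted p = 0.492), or −0.32 without high stress replicate 3. With the replicate number as a block the adjusted p was 0.0462, where 5.39% of probe sets were called, against 0.408% without it. The positive gradient, at 9.19 ± 0.40, differed from baseline by −0.50 (SE 0.379, adjusted p = 0.41; 0.0497 with the block, where 17.0% of probe sets were called). With the block and without replicate number 2 in any group, the TFPI2 differences were −0.44 for high stress (adjusted p = 0.277) and −0.29 for the positive gradient (adjusted p = 0.36).

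All 3 pairs had a lower TFPI2 value than their baseline partner in both comparisons. They were at −0.15, −0.93 and −0.74 for high stress and at −0.16, −0.91 and −0.42 for the positive gradient. Baseline arrays entered both comparisons, and baseline replicate 2, at 10.53, was the highest of the 12. Without baseline replicate 2 the differences in the fit without a block were −0.19 for high stress and −0.077 for the positive gradient. Negative gradient against baseline gave −0.31 (95% interval −1.13 to 0.51, adjusted p = 0.651), with pairs at −0.20, −0.51 and −0.21. Between the gradients TFPI2 differed by −0.19 (−1.01 to 0.63). Positive and negative gradient against high stress gave 0.11 (−0.71 to 0.93) and 0.30 (−0.52 to 1.12), or −0.18 and 0.0084 without high stress replicate 3. High stress had the lowest mean. The mean under the negative gradient, 9.38 ± 0.55, lay between baseline and the positive gradient, and no neighbours in this order differed by the test.

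Within the groups the 3 genes followed the replicate number. PROCR was lowest in replicate 2 of each of the 4 groups, by 0.55 to 0.92 below the group mean, as 4.50% of probe sets were. TFPI2 was highest in replicate 2 of each group, by 0.42 to 0.84 above the group mean, as 4.71% were. THBD and TFPI2 were both lowest in replicate 3 of each group, a position held by 3.87% of probe sets. In replicate 3 THBD lay 0.094 to 0.28 below its group mean. The labels do not say what the numbers stand for.

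**Figure D3:**
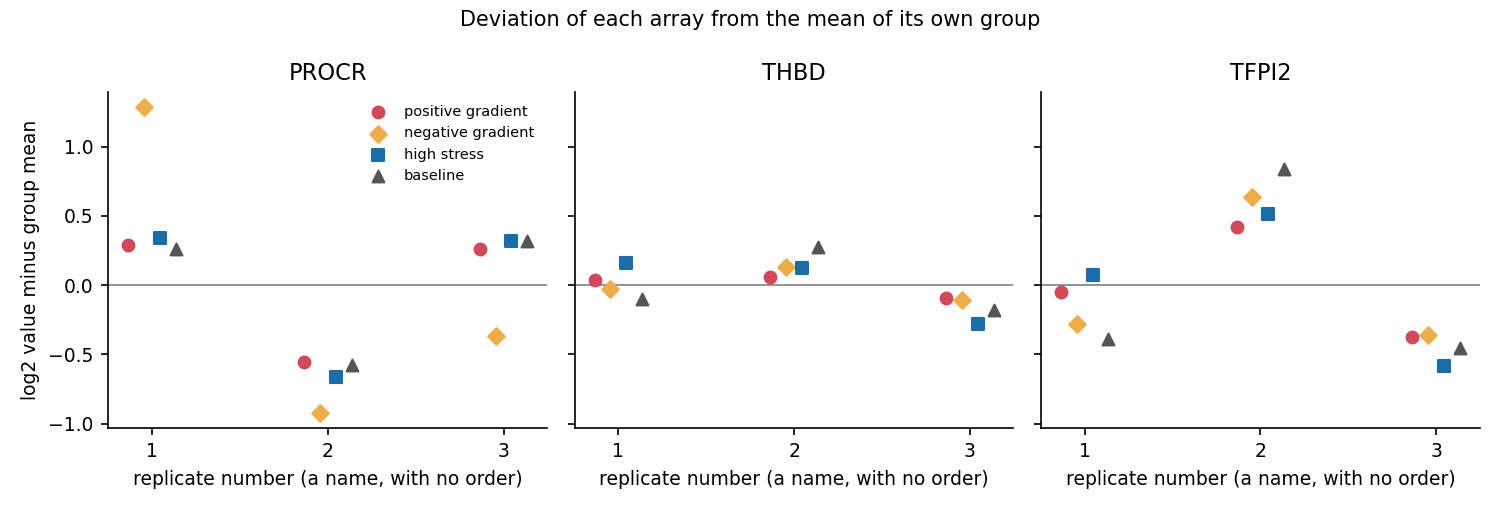
Log2 value of each array minus the mean of its own flow group (vertical axis), by replicate number (horizontal axis, names with no order), for PROCR, THBD and TFPI2. Each symbol is 1 array of the group in the legend. PROCR lies below 0 and TFPI2 above 0 in all 4 arrays numbered 2, and negative gradient replicate 1 is the highest PROCR point at 1.28.

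Over the 12 arrays the level of PROCR ran opposite to that of TFPI2 (Pearson r −0.67, and −0.72 after the group means were taken out). THBD and TFPI2 ran together (r 0.85, and 0.91 without the group means), and PROCR and THBD gave −0.54 and −0.48. These values are descriptions over arrays that share groups and replicate numbers.

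Among the brightest probe sets of the other 3974 named genes, the PROCR profile over the 12 arrays was most like that of ECT2, an exchange factor of cytokinesis (r 0.98). NSL1, a kinetochore protein (0.97), CKAP2L, a protein of the mitotic spindle (0.97), and KIFBP, a kinesin-binding protein (0.97), came next. The most opposite were NOTCH4, a Notch receptor of endothelium (−0.96), and LHPP, a phosphatase (−0.96). Against baseline ECT2 stood at 0.79 (adjusted p = 0.0662) under the positive gradient and 0.92 (0.11) under high stress.

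The profile of THBD was most like those of NT5DC1 (r 0.94), NCOA7, a nuclear receptor coactivator (0.93), TRAF3, an adaptor of immune receptors (0.93), and TMEM117 (0.93). NT5DC1 (mean 4.62), TRAF3 (5.49) and TMEM117 (5.79) lay near or below the array medians of 5.65 to 5.72, and NCOA7 averaged 7.40. The THBD profile was most opposite to NES, the intermediate filament nestin (−0.98), and TIMP1, an inhibitor of matrix metalloproteases (−0.93). TIMP1 rose under the positive gradient against baseline, by 1.25 (adjusted p = 0.0214), while THBD stood at −0.34. For TFPI2 the most alike were NMI, an interferon-induced partner of STAT proteins (r 0.96), SELENOS, a selenoprotein of the endoplasmic reticulum (0.96), IFNAR2, an interferon receptor chain (0.96), and TMEM185B (0.96). SMARCE1, a chromatin remodelling subunit (−0.95), and CUBN, the endocytic receptor cubilin (−0.94, at a low mean of 5.97), were the most opposite. With the mean of each replicate number taken out, 1 of the 4 genes most like PROCR, 0 of those most like THBD and 1 of those most like TFPI2 stayed among the 4.

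The other genes of the clotting system were read from 5 lists written from general knowledge, together with a list of transcription factors known to act on THBD. Of the 106 genes in the 6 lists 45 were measured, each read at its brightest probe set. The shares of all probe sets given beside them cover mostly probe sets without a gene name, so the 2 sets are unlike. In the positive gradient against baseline 4 rose and 3 fell (15.6% of the 45, beside 7.01% of all probe sets). In the negative gradient against baseline 1 rose and in high stress against baseline 1 fell (2.22% of the 45 in each, beside 1.67% and 0.408% of all probe sets), and in the other 3 comparisons none passed. With the replicate block 10 rose and 9 fell in the positive gradient against baseline, where 17.0% of all probe sets were called. With the block 5 rose in the negative gradient against baseline (6.62% of all probe sets), and 4 rose and 4 fell in high stress against baseline (5.39% of all probe sets). All 9 of the calls without the block were lost in some of the 12 fits that each left out 1 array. For the positive gradient against baseline VKORC1 passed in 8 of them, CAV1 in 7, PLAUR, RAC1 and GGCX in 6, MEF2A in 2 and ANXA5 in 1. VKORC1 at high stress and F2RL2 under the negative gradient each passed in 3, and without high stress replicate 3 VKORC1 was at −0.64 there (adjusted p = 0.127).

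In the list of other natural anticoagulants 1 of 5 measured genes rose under the positive gradient. This was ANXA5, an annexin that shields membrane phospholipid from clotting factors, at 0.38 (SE 0.107, adjusted p = 0.0498). TFPI, the main inhibitor of the tissue factor pathway and a relative of TFPI2, had values of 0.12, 0.062 and 0.17 at its 3 probe sets in that comparison. SERPINC1, the thrombin inhibitor antithrombin, was at −0.60 (adjusted p = 0.174) under the positive gradient and −0.55 (0.367) under high stress. PROS1, the cofactor of activated protein C, was at −0.33 (adjusted p = 0.197) under the positive gradient and −0.45 (0.205) under high stress. The list's median under the positive gradient was −0.33, beside −0.041 over the named genes.

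In the procoagulant list 2 of 7 measured genes fell under the positive gradient, and both serve the vitamin K cycle that clotting factors and protein C need. VKORC1, the reductase that recycles vitamin K, fell by 0.65 on the log2 scale (SE 0.124, adjusted p = 0.0188). GGCX, the carboxylase that uses it, fell by 0.72 (SE 0.172, adjusted p = 0.0328). VKORC1 also fell at high stress, by 0.68 (adjusted p = 0.0361), and stood at −0.18 (adjusted p = 0.393) under the negative gradient. F5, the clotting cofactor that activated protein C cuts, was at −0.85 (adjusted p = 0.143, and 0.0127 with the block) under the positive gradient. The list's median there was −0.43, with 1 of 7 values above 0, beside −0.041 and 47.1% over the named genes.

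Of the 7 measured fibrinolysis genes PLAUR, the urokinase receptor, rose under the positive gradient. It stood at 9.64, 10.35 and 10.16 there, against 8.27, 9.37 and 8.86 at baseline (difference 1.22, SE 0.320, adjusted p = 0.0419). PLAT, tissue plasminogen activator, was at 1.11 (SE 0.335) with an adjusted p of 0.0615 (0.0039 with the block). With the block 3 of the 7 rose there and 1 fell, where 17.0% of all probe sets were called. The one that fell was THBS1, at −0.47 (adjusted p = 0.0173 with the block), with its other probe sets at −0.42, −0.14 and 0.15. The list's median there was 0.20, with 5 of 7 values above 0, beside −0.041 and 47.1% over the named genes. At high stress PLAUR was at 1.14 and PLAT at 1.00, at adjusted p-values of 0.129 and 0.186 (0.0113 and 0.00519 with the block). PLAUR values of the positive gradient lay above those of baseline in every array, as did 18.6% of probe sets.

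Thrombin receptors and genes of activated protein C signalling included 11 measured genes. RAC1, a GTPase of the actin cytoskeleton, rose under the positive gradient at its brighter probe set (0.66, adjusted p = 0.0349) and stood at 0.21 at its other one. CAV1, the coat protein of caveolae, fell by 0.89 (adjusted p = 0.0362), with its dimmer probe set at −0.26. F2RL2, a thrombin receptor, rose under the negative gradient (0.69, SE 0.154, adjusted p = 0.0466) and stood at 0.39 (0.127) under the positive gradient. F2R, the main thrombin receptor of endothelium, was at −0.44 (adjusted p = 0.331, and 0.0287 with the block) under the positive gradient.

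Among the 7 measured factors known to act on THBD, MEF2A, a muscle and endothelial transcription factor, rose under the positive gradient (0.89, SE 0.249, adjusted p = 0.0489). Values of 4 of the 7 lay above 0 there. HIF1A (−0.34), NFKB1 (−0.30) and RELA (−0.23) lay below and were not called. The MEF2A signal was weak: it averaged 6.01, little above the array medians of 5.65 to 5.72, and 5.50 in the baseline group. KLF4, a flow-induced activator of THBD, was at 11.78 ± 0.28 under the positive gradient, against 10.67 ± 0.79 at baseline (difference 1.11, adjusted p = 0.0785, and 0.00572 with the block). At high stress it was at 11.90 ± 0.34 (difference 1.23, adjusted p = 0.143, and 0.00416 with the block). THBD stood at −0.34 and −0.22 in these comparisons, in which both groups were under flow. Over the 4 groups the order of the KLF4 means, with high stress first and baseline last, was that of PROCR. Like PROCR, KLF4 was lowest in replicate 2 of each group. How many other genes share this order is not given here, and a link between KLF4 and PROCR was not tested.

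**Figure D4:**
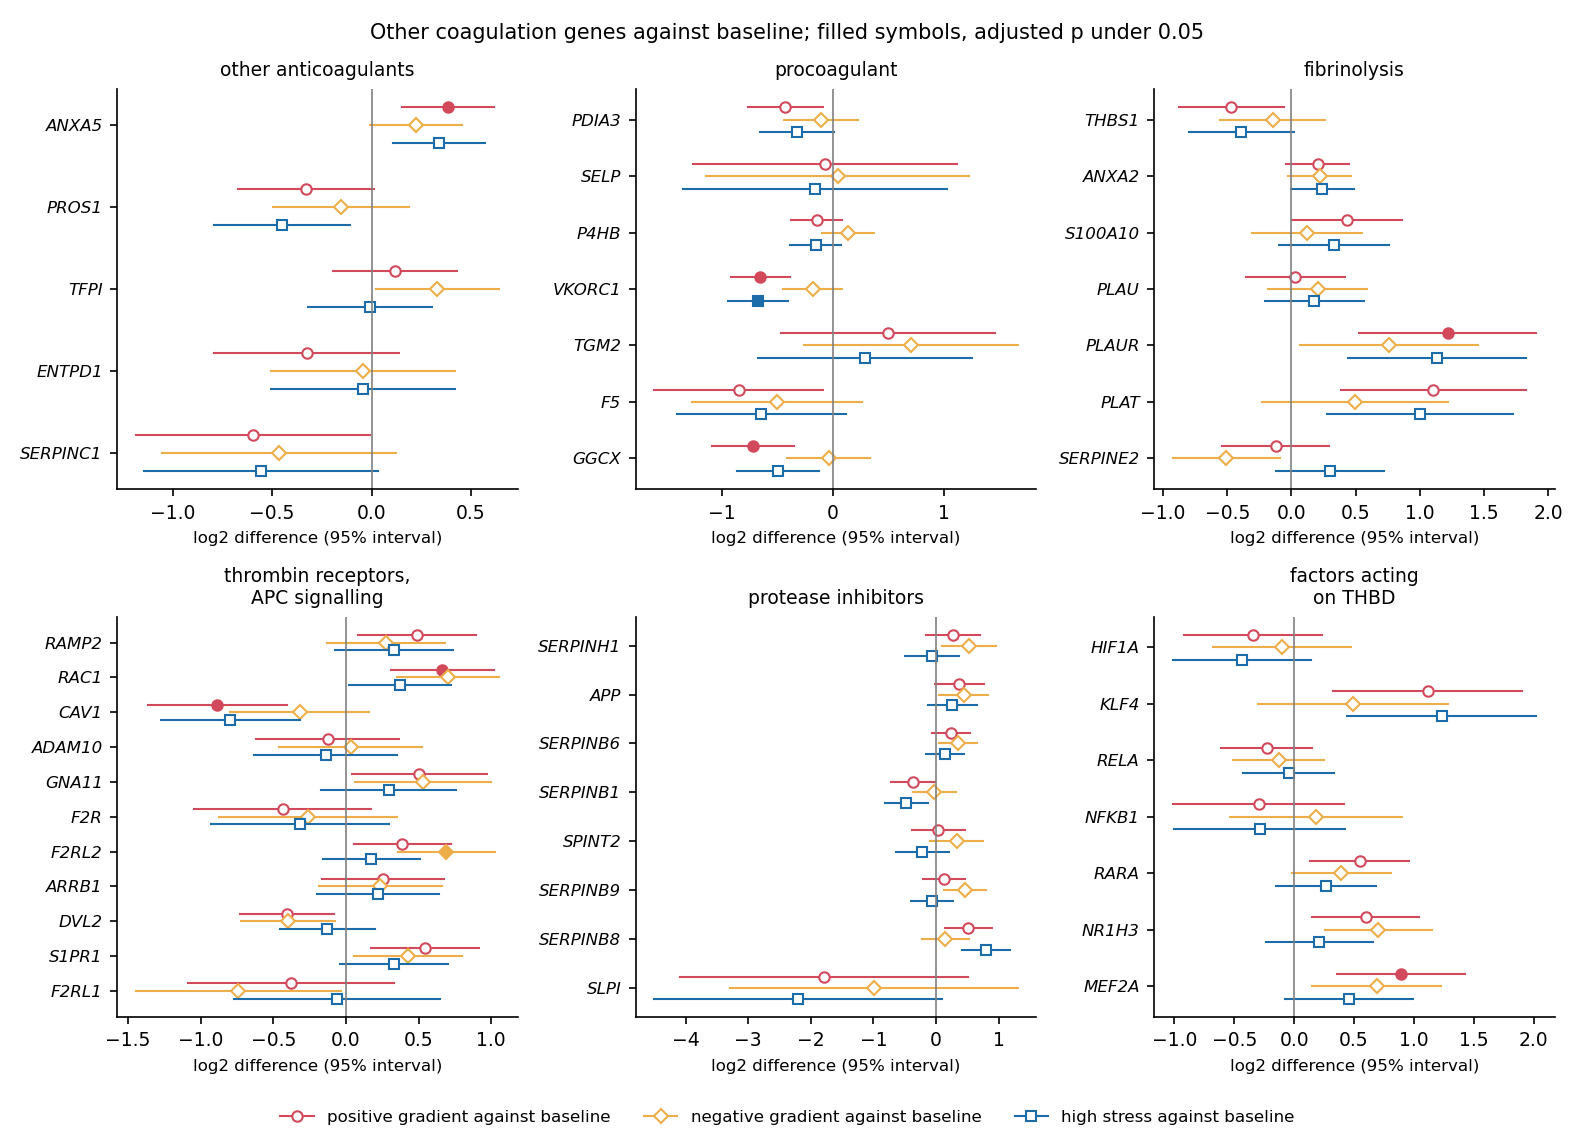
Log2 differences against baseline, with 95% intervals, for the 45 measured genes of the 6 lists, a panel for each list. Filled symbols passed limma's test. PLAUR at 1.22 is the largest called difference, and VKORC1 passed in both the positive gradient (−0.65) and high stress (−0.68).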

How the data were processed

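Total RNA from 12 samples in 4 flow groups was measured on an Affymetrix bovine array. The deposited log2 values were made by the authors with RMA, per the submitters' processing notes. Those notes name limma too, without versions or settings. The deposited series matrix repeats 7194 of the 24128 probe sets with 0 differing cells. Without the 112 controls, 24016 were fitted in 1 limma model (limma 3.58.1, R 4.3.3) with a mean per group and eBayes defaults. P-values were adjusted by Benjamini-Hochberg over all probe sets of a comparison and called under 0.05. SE is limma's moderated standard error.

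The brightest probe set stood for a list gene. The annotation gave 4726 tested probe sets 1 symbol, and 4715 of their Entrez numbers matched the RefSeq table. Members, lists and tests were chosen with earlier results of these data known. All probe sets of the 3 genes were described; of a list, up to 4 called genes, or 2 with the largest values, were named, and by Pearson r the 4 most alike and 2 most opposite. PLAT, KLF4, PROS1, SERPINC1, TFPI, F2R, F2RL2, F5, THBS1, HIF1A, NFKB1 and RELA in some comparisons were named after their values were seen.

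Same-numbered arrays deviated together from their group means (correlations 0.149 to 0.616) in 5 comparisons, so the replicate number was used as a block there. For negative gradient against high stress, 1 correlation was −0.0785. The fit was tested on simulated data. No sequence of these genes was used here.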

Additional observations from a re-analysis of the deposited data

How the results depend on the processing

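The 18 differences of PROCR, THBD and TFPI2 were recomputed under 13 other settings, 3 of them chosen after the data were seen, and with each of the 12 arrays left out. Under the 13 settings 221 of 234 values kept their sign and side of the threshold. PROCR at high stress against baseline (2.78) had an adjusted p of 0.0679 with a trended, robust prior and 0.0773 with only the 6 arrays compared. PROCR in negative gradient against high stress passed with the replicate block (−2.13, adjusted p = 0.00664; the numbers do not pair these arrays), with duplicateCorrelation (−2.13, 0.0265), with array weights (−2.02, 0.0239) and with the block without replicate number 1 (−2.60) or 3 (−1.79). Without number 1 PROCR between the gradients was 2.18. With the block TFPI2 passed in positive gradient against baseline (−0.50) and in high stress against baseline (−0.61, and −0.84 without number 1), and the block changed no other call among paired comparisons of the 3 genes. Signs turned for TFPI2 in positive gradient against high stress with array weights (−0.12) and for THBD in negative gradient against high stress with the block without number 1 (0.036).

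With each array left out, PROCR ranged from 2.05 to 2.61 in positive gradient against baseline, 2.49 to 3.11 in high stress against baseline and −2.77 to −1.67 in negative gradient against high stress. It passed in 8, 7 and 1 of the 12 fits. Ranges that crossed 0 were TFPI2 in positive gradient against high stress (−0.18 to 0.37), between the gradients (−0.40 to 0.13), in negative gradient against high stress (−0.019 to 0.56) and against baseline (−0.63 to 0.11), and THBD between the gradients (−0.11 to 0.0075) and in negative gradient against high stress (−0.20 to 0.022); none of these was called. The causes were not tested.

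Counts of called probe sets moved more. They were 1684 in positive gradient against baseline (0 to 4074 over all settings and left-out arrays; 4074 with the block) and 401 in negative gradient against baseline (0 to 2394; 1590 with the block). They were 98 in high stress against baseline (0 to 1294; 1294 with the block) and 23 in negative gradient against high stress (0 to 2702; 1030 with the block). Positive gradient against high stress had 0 (up to 342), and the gradients 0 (up to 6). With Spearman's rho 1 of the 4 genes most like each member stayed, and without high stress replicate 3, 2 for PROCR and 3 for THBD and TFPI2. The number of arrays limits the precision, and RMA values carry no call of presence.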

Other observations

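The 8 measured Kunitz-type and other serine protease inhibitors, the wider class to which TFPI2 belongs, had no member past limma's test without the block in any comparison. Under the positive gradient 6 of 8 had values above baseline (median 0.18), under the negative gradient 6 of 8 (median 0.34) and at high stress 3 of 8 (median −0.061). Of the named genes 47.1%, 42.3% and 48.2% lay above baseline in these comparisons, with medians of −0.041, −0.069 and −0.014. SLPI, an inhibitor of leukocyte elastase, had the widest values, at −1.79 (SE 1.06, adjusted p = 0.289) under the positive gradient and −2.20 (SE 1.06, adjusted p = 0.357) at high stress, and both passed with the replicate block (adjusted p = 0.0082 and 0.0043). SERPINB8, an intracellular serpin, was at 0.52 (adjusted p = 0.0863) under the positive gradient and 0.80 (0.0687, and 0.0207 with the block) under high stress. With the block SERPINB1, an inhibitor of neutrophil proteases, also passed at −0.36 under the positive gradient (adjusted p = 0.0399) and −0.47 under high stress (0.0268), and SERPINH1, a collagen chaperone, at 0.53 under the negative gradient (0.0484). These were named after their values were seen.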
